A study of Homo sapiens with 12 samples.

Results

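The nuclear receptor coactivator and corepressor genes described here were 8 genes named by function, and regions were assigned to them by position alone. A region belonged to a gene when it overlapped, by at least 1 bp, the gene's span in RefSeq (GRCh38.p14) or the 10 kb flanking it at each end. This stretch is called the locus. The 8 loci held 29 of the 49496 regions in 3 deposited lists. The lists come from ATAC-seq, which maps accessible DNA by where a transposase inserts, in the prostate cancer cell line 22Rv1, whose samples all carry the genotype label WT. There were 12 samples in 4 groups of 3, all treated for 6 h: OSU-ERb-12 plus enzalutamide (called the combination), OSU-ERb-12 at 100 nM, enzalutamide at 1 µM, and vehicle. The combination samples carry no doses in their own labels. Enzalutamide blocks the androgen receptor, and OSU-ERb-12 binds oestrogen receptor beta.

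Nuclear receptors are transcription factors that change partners when a ligand binds. With an agonist they recruit p160 coactivators, which bring in the acetyltransferases EP300 and CREBBP, and chromatin becomes permissive for transcription. Without agonist, or with an antagonist, some receptors recruit corepressors such as NCOR1, which carries histone deacetylase activity to the DNA. The same coregulators serve the androgen receptor and the oestrogen receptors, so they are of interest in prostate cancer cells treated with ligands of both.

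The combination list held 6248 regions, the OSU-ERb-12 list 17931 and the enzalutamide list 25317. Each list is 1 set of positions for a treatment, taken here to come from a comparison with vehicle, with no value per library and none per region. Sequencing depth is therefore unknown, replicate error cannot be given, and no statistical test of a treatment was possible. The sources used here do not say whether a listed region was more or less accessible than in the vehicle group. The names of all 3 lists carry the tag "neg", which may mean lower accessibility, but no source defines it and no direction was assigned. All statements below are about where listed regions lie, and a locus without one may still have changed. The lists hold no expression values, so the cell line was not checked against its markers.

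Promoter windows, from 250 bases before to 50 after an annotated start, were on hand for 7 of the 8 genes (all but NCOA2). Only 1 of the 7 had a listed region in a window, and an enzalutamide region lay in a window at 12.2% of the 15843 protein-coding genes with one. It was the enzalutamide region over the first start of NCOA1, and the window on chr2:24491004-24491303, plus strand, is shown with that region in capitals. The windows at EP300 (chr22:41092342-41092641, plus strand) and NCOR1 (chr17:16215485-16215784, minus strand) are shown because the nearest enzalutamide region stopped 41 bp and 66 bp short of them. In the NCOR1 window the capitals mark a match, on the opposite strand, to TGACTCA, the AP-1 element. All 3 sequences are from RefSeq (GRCh38.p14).
NCOA1: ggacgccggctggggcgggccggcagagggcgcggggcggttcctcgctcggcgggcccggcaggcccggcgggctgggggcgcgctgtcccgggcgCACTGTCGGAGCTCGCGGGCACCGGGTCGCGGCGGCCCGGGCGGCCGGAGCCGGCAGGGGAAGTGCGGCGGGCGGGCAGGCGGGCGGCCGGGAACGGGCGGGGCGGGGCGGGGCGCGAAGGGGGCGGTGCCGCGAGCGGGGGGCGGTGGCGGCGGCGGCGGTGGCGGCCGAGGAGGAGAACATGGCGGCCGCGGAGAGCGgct
EP300: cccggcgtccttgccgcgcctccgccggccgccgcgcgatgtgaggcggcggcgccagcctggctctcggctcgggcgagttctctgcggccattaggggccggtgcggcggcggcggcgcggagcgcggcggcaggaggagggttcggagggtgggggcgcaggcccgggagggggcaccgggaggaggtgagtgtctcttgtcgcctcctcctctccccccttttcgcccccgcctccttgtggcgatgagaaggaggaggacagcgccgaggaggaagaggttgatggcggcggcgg
NCOR1: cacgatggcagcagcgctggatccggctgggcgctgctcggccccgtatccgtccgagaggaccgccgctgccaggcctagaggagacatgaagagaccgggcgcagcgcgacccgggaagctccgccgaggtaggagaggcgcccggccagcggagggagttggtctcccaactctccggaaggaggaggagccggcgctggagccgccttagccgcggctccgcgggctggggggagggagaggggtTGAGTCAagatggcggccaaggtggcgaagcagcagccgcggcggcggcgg

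These windows were rich in G and C, with 85.7% at NCOA1, 75.3% at EP300 and 72.7% at NCOR1, against a median of 62.3% over 22199 windows of protein-coding genes. The other member windows ranged from 26.3% (second start of NCOR1) to 82.0% (second start of CREBBP), with 80.0% at the third start of NRIP1. A high content was thus not particular to the 3 windows shown. The NCOA1 window held 10 matches to GGGCGG, the core of SP and KLF factor elements, some of them overlapping, and 1 match to AGAACA, the androgen and glucocorticoid element core. The EP300 window held no match to any motif searched. Motifs were read on both strands, and of all 35116 promoter windows 45.0% held GGGCGG, 14.8% AGAACA, 13.8% the oestrogen element core AGGTCA, 4.95% TGACTCA and 3.42% the forkhead element TGTTTAC. Of the member windows only the second start of NCOA4 held AGGTCA. Matches are a description of the letters and were not linked to any factor.

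Across the 8 genes, 2 held a combination region, 4 an OSU-ERb-12 region and 7 an enzalutamide region. Among all 20037 protein-coding genes these percentages were 21.7% for the combination, 39.1% for OSU-ERb-12 and 58.3% for enzalutamide. These 8 genes are long, with a median locus of 175.3 kb against 44.1 kb for all protein-coding genes, and long loci collect more regions. Among the 9123 genes with loci between the shortest and the longest of the 8 (45.5 to 366.7 kb), 26.2% held a combination region, 48.8% an OSU-ERb-12 region and 68.7% an enzalutamide region. The members' shares were 25% (exact Clopper-Pearson 95% interval 3.19 to 65.1) for the combination, 50.0% (15.7 to 84.3) for OSU-ERb-12 and 87.5% (47.3 to 99.7) for enzalutamide. Each of these intervals holds both percentages for its list, so no departure from other genes was detectable with 8 genes. The intervals here cover counting error only.

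Numbers of regions gave a like result. The combined loci (1500.9 kb) held 2 combination regions, where 3.58 were expected from locus length and how dense the list was on the chromosome, and the exact Poisson 95% interval of the count was 0.242 to 7.22. They held 9 OSU-ERb-12 regions (4.12 to 17.1), with 9.39 expected, and 18 enzalutamide regions (10.7 to 28.4), with 13.0 expected. Per 100 kb this was 0.133 for the combination, 0.600 for OSU-ERb-12 and 1.20 for enzalutamide, against 0.286, 0.760 and 1.18 over the merged loci of all protein-coding genes. The median per gene was 0 combination regions, 0.5 OSU-ERb-12 regions and 2 enzalutamide regions for the 8 genes, and 0, 0 and 1 over all protein-coding genes. The expected numbers rest on averages over whole chromosomes, DNA outside gene loci included, and listed regions cluster, so they are given as a description. For enzalutamide the averages of the members' chromosomes were 0.544 to 1.14 regions per 100 kb, all below the 1.18 over merged gene loci. The numbers expected for enzalutamide, here and for single genes below, are therefore low for gene loci.

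**Figure D1:**
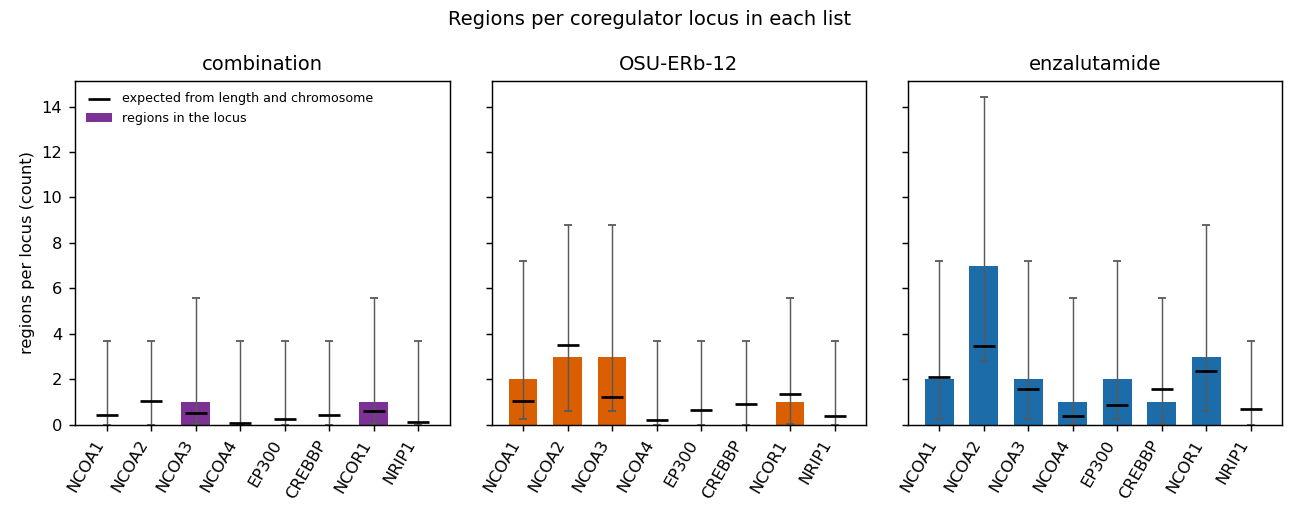
Regions per locus (count) at each of the 8 genes in the combination, OSU-ERb-12 and enzalutamide lists. Bars are counts with exact Poisson 95% intervals and black dashes are numbers expected from locus length and chromosome density; NCOA2 with 7 enzalutamide regions is the tallest bar, and NRIP1 has none in any panel.

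The 8 genes fell into 4 patterns. NCOA3 and NCOR1 held regions of all 3 lists, a pattern of 11.0% of all protein-coding genes and of 15.0% of those with loci in the members' length range. NCOA1 and NCOA2 held OSU-ERb-12 and enzalutamide regions but no combination region, a pattern of 18.2% of all genes. EP300, CREBBP and NCOA4 held enzalutamide regions only, as did 23.1% of all genes. Neither this share nor the 18.2% was computed for genes in the length range, so both compare with shorter genes. NRIP1 held no region of any list, as was the case for 29.3% of all genes and 18.4% of those in the length range.

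**Figure D2:**
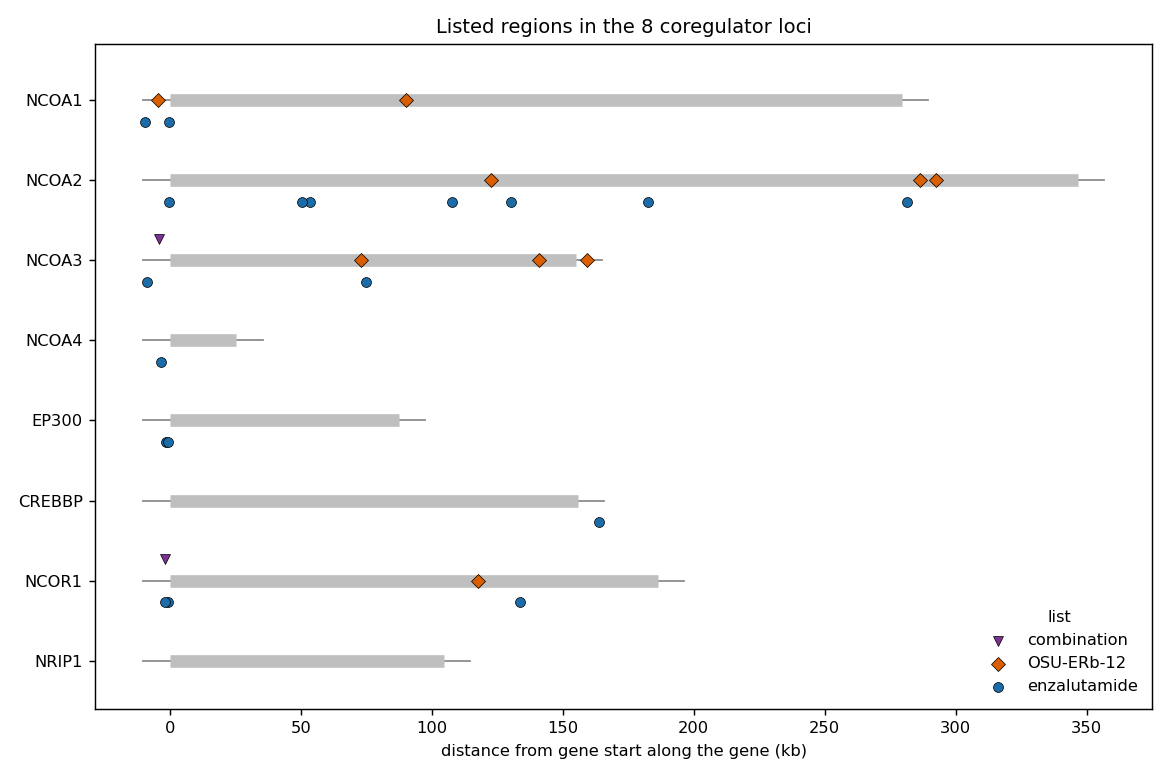
Position of each listed region, plotted at its midpoint as distance in kb from the gene start, for NCOA1 at the top to NRIP1 at the bottom; thick grey bars are genes, thin lines the 10 kb flanks, and symbols the combination, OSU-ERb-12 and enzalutamide lists. For NCOA2, whose strand was not in the table of starts, distance runs from its end of higher coordinate; both combination regions lie in flanks, OSU-ERb-12 regions lie mostly in gene bodies, and enzalutamide regions touch or approach the starts of NCOA1, NCOA2, EP300 and NCOR1.

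The p160 coactivator genes NCOA1, NCOA2 and NCOA3 encode the proteins that dock directly on the ligand-bound receptor. Their loci made up 56.0% of the length studied here. They held 1 of the 2 combination regions, 8 of the 9 OSU-ERb-12 regions (88.9%, exact 95% interval 51.8 to 99.7) and 11 of the 18 enzalutamide regions (61.1%, 35.7 to 82.7). Both intervals include 56.0%, the share that length alone gives. The remaining OSU-ERb-12 region was at NCOR1, so EP300, CREBBP, NCOA4 and NRIP1 had none.

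NCOA2 on chromosome 8 (70109782 to 70456446), the gene of the coactivator also known as GRIP1 or TIF2, held the most regions of the 8 genes. It had no combination region, 3 OSU-ERb-12 regions and 7 enzalutamide regions, with 1.05, 3.53 and 3.45 expected. Of these 10, 9 lay wholly inside the gene and 1 crossed its end of higher coordinate. At least 7 enzalutamide regions were found at 1.03% of all protein-coding genes, and at 7.98% of the 564 genes whose locus length was within 25% of that of NCOA2. The exact Poisson interval of 7 is 2.81 to 14.4 and includes the 3.45 expected.

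The enzalutamide regions of NCOA2 were spread along the gene rather than gathered in a block. The region that crossed the end, at 70456401 to 70456750, had 46 of its 350 bp in the gene and was the widest at NCOA2. A pair at 70405901 to 70406100 and 70402751 to 70403050 lay about 50.3 and 53.4 kb from that end. Others stood at 70348551 to 70348800, 70325901 to 70326150, 70273651 to 70273900 and 70174751 to 70175050. The region at 70273651 lay over BTF3P12, a pseudogene inside NCOA2, and whether reads from other copies of that sequence contributed was not tested.

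The OSU-ERb-12 regions of NCOA2 were at 70164051 to 70164250, 70170151 to 70170400 and 70333901 to 70334100. None of them overlapped an enzalutamide region. The closest approach was 4350 bp, between the OSU-ERb-12 region at 70170151 and the enzalutamide region at 70174751. The next, at 7750 bp, was between the OSU-ERb-12 region at 70333901 and the enzalutamide region at 70325901. The nearest combination region was outside the locus, 38181 bp below the gene at 70071401 to 70071600.

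NCOA1 on chromosome 2 (24491254 to 24770702), which encodes the founding member of the p160 family, held 2 OSU-ERb-12 regions and 2 enzalutamide regions, with 1.06 and 2.09 expected, and no combination region. Of the 756 genes of like locus length, 48.9% held at least 2 OSU-ERb-12 regions and 65.7% at least 2 enzalutamide regions. The enzalutamide region at 24491101 to 24491300 covered the first annotated start, with 47 of its 200 bp in the gene, and is the stretch in capitals in the NCOA1 window above. The other enzalutamide region, at 24481701 to 24482000, lay 9253 bp upstream of the gene. Between these stood an OSU-ERb-12 region at 24486901 to 24487100, 4153 bp upstream of the gene. It was 4000 bp from the enzalutamide region at the start. The second OSU-ERb-12 region, at 24581201 to 24581400, was inside the gene and 3.08 kb from an internal annotated start. The nearest combination region was 387.1 kb upstream of the gene.

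NCOA3 on chromosome 20 (47501887 to 47656872), the p160 gene also known as AIB1 and amplified in some breast cancers, held 1 combination region, 3 OSU-ERb-12 regions and 2 enzalutamide regions, with 0.534, 1.21 and 1.56 expected. At least 3 OSU-ERb-12 regions were found at 6.32% of all genes and at 17.3% of the 1557 genes of like locus length. The combination region, at 47497551 to 47497800, lay 4086 bp upstream of the start, and 4150 bp from the enzalutamide region at 47493151 to 47493400. It overlapped neither single-agent list. Of the OSU-ERb-12 regions, those at 47574701 to 47574900 and 47642901 to 47643100 were inside the gene. The third, at 47661251 to 47661450, lay past the far end of NCOA3 and inside SULF2, a neighbouring sulfatase gene. Inside NCOA3 the OSU-ERb-12 region at 47574701 and the enzalutamide region at 47576551 to 47576850 were separated by 1650 bp, the smallest gap between these lists at any of the 8 genes.

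EP300 and CREBBP encode paralogous acetyltransferases that the p160 proteins recruit. Neither locus held a combination or an OSU-ERb-12 region, and neither gene body held a region of any list. EP300 on chromosome 22 (41092592 to 41180077) held 2 enzalutamide regions, with 0.895 expected. At least 2 were found at 37.8% of the 2444 genes of like locus length. Those at EP300 lay just before the start, at 41091251 to 41091500 and 41091951 to 41092300, the second 291 bp from the gene. CREBBP on chromosome 16 (3725054 to 3880713) held 1 enzalutamide region, with 1.59 expected, at 3716651 to 3716900. It lay 8153 bp beyond the far end of CREBBP, inside TRAP1, a mitochondrial chaperone gene, and 624 bp from the start of that gene. The enzalutamide regions counted here lay just before the gene's own start for EP300 and near a neighbour's start for CREBBP. This contrast rests on few regions. Merging within 1 kb left 1 at EP300, and flanks of 5 kb left 0 at CREBBP. With flanks of 50 kb each locus held 5 enzalutamide regions. Within 1 kb of a start the lists named enzalutamide alone at EP300, and also at NCOA1, NCOR1 and, with either end counted, NCOA2. Over all protein-coding genes 28.0% had an enzalutamide region so placed, with or without regions of the other lists.

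NCOA4 on chromosome 10 (46005088 to 46030623), first described as an androgen receptor coactivator and also the receptor that sends ferritin to autophagy, has the shortest locus of the 8 (45.5 kb). It held 1 enzalutamide region, with 0.379 expected, and 55.9% of the 4950 genes of like locus length held at least 1. The region at NCOA4 lay at 46033901 to 46034100. This region was 3277 bp upstream of NCOA4, over the noncoding gene LOC105378287 and inside MSMB, which encodes a secreted protein of the prostate. The nearest combination and OSU-ERb-12 regions were 252.2 kb and 268.1 kb away.

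The corepressor genes NCOR1 and NRIP1 differed in whether they held regions at all. NCOR1 on chromosome 17 (16029157 to 16215534), the scaffold of a histone deacetylase complex, held 1 combination region, 1 OSU-ERb-12 region and 3 enzalutamide regions, with 0.627, 1.35 and 2.36 expected. Of the 1234 genes of like locus length, 35.3%, 64.0% and 32.9% held at least as many, in the same order of lists. The enzalutamide region at 16215851 to 16216250 was 316 bp upstream of NCOR1 and, at 400 bp, the widest of the 29 regions. It was also 960 bp from a start of the neighbouring gene PIGL. The combination region, at 16217301 to 16217500, shared its lower boundary with the enzalutamide region at 16217301 to 16217650 and lay wholly within it. Both were 1766 bp upstream of NCOR1, but also inside PIGL itself, an enzyme gene of glycosylphosphatidylinositol anchor synthesis, and 91 bp from a start of that gene. Inside NCOR1 the OSU-ERb-12 region at 16097851 to 16098050 and the enzalutamide region at 16081551 to 16081850 stood 16000 bp apart.

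NRIP1 on chromosome 21 (14961235 to 15065936) encodes RIP140, a ligand-dependent corepressor and a classical oestrogen-induced gene in breast cancer cells. Its locus held no region of the combination, the OSU-ERb-12 or the enzalutamide list, with 0.147, 0.414 and 0.679 expected. A count of 0 has an exact Poisson upper limit of 3.69, so these counts lay within counting error of the expected numbers. The nearest OSU-ERb-12 region was 15084 bp downstream of the gene at 14945951 to 14946150, and the nearest enzalutamide region 33014 bp upstream at 15098951 to 15099150. The nearest combination region was 578.0 kb away.

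**Figure D3:**
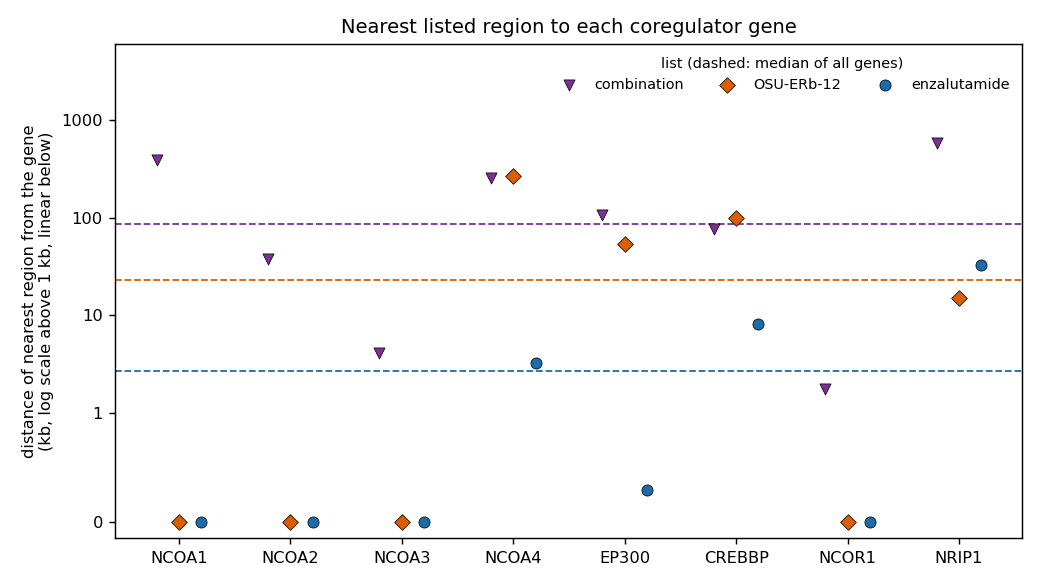
Distance in kb from each of the 8 genes to the nearest region of the combination, OSU-ERb-12 and enzalutamide lists (0 where a region lies in the gene), on an axis that is logarithmic above 1 kb and linear below. Dashed lines are medians over all protein-coding genes, not matched for gene length, at 85.9, 23.3 and 2.69 kb in the same order of lists. For both OSU-ERb-12 and enzalutamide 4 genes sit at 0, and none does for the combination.

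Distance to the nearest region summarised these positions. No gene body held a combination region, while NCOA1, NCOA2, NCOA3 and NCOR1 held both OSU-ERb-12 and enzalutamide regions in the body. The median distance for the 8 genes was 91.5 kb to a combination region, 7.54 kb to an OSU-ERb-12 region and 0.145 kb to an enzalutamide region. Over all protein-coding genes the medians were 85.9, 23.3 and 2.69 kb for the same lists, and 13.9%, 26.8% and 41.1% of genes held such a region in the body. These values were not matched for gene length. A long gene more readily holds a region in its body, at distance 0, and the 8 genes are long. Whether they lie closer to listed regions than other genes of their length was not tested.

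The member regions at gene starts all came from the enzalutamide list. That list also had the highest share of genes with a region at a start over all protein-coding genes. Within 1 kb of an annotated start lay no combination region, no OSU-ERb-12 region and 4 enzalutamide regions, at NCOA1, NCOA2, EP300 and NCOR1. For NCOA2 both gene ends were counted because its strand was not in the table of starts. Over all protein-coding genes 5.05% had a combination region, 6.72% an OSU-ERb-12 region and 28.0% an enzalutamide region so placed. There too, both ends were counted for genes without a start in that table. The difference between the lists was not tested. When the window was widened to 5 kb the numbers of regions were 2, 2 and 7 in the same order of lists. All 9 OSU-ERb-12 regions lay further than 1 kb from a start, 7 in gene bodies and 2 in flanks. Of the 18 enzalutamide regions 8 lay wholly in gene bodies, 8 in flanks, and 2 crossed a gene end, at NCOA1 and NCOA2. Where a region is said to be held in a gene body, any overlap counts.

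At these genes 1 pair of regions overlapped between lists, and over the whole lists a minority of regions overlapped. The overlap that random placement would give was not computed. Of the combination regions 1 of 2 overlapped an enzalutamide region, which is 50.0% of these combination regions and 5.56% of the 18 enzalutamide regions, where the shares over the whole lists were 16.3% of combination and 4.02% of enzalutamide regions. No combination region overlapped an OSU-ERb-12 region, against 12.7% over the whole combination list. No OSU-ERb-12 region overlapped an enzalutamide region at the 8 loci (0 of 9, exact 95% interval 0 to 33.6%), against 8.72% over the whole OSU-ERb-12 list. The exact intervals of the members' shares include the shares over the whole lists, so no difference was detectable. The treatments were studied beside 1 vehicle group, so any overlap between lists may include vehicle libraries that they share, which was not tested. Beyond the 10 kb flanks, 1 further overlap lay within 50 kb of a member, where an OSU-ERb-12 region (16000001 to 16000250, chromosome 17) fell inside an enzalutamide region (15999951 to 16000350) in TTC19, 28906 bp from NCOR1.

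The OSU-ERb-12 regions at these genes were narrow and the enzalutamide regions wider, an order also seen over the whole lists. Whether the member regions differ in width from the whole lists was not tested. Of the member regions 1 of 2 combination regions, 8 of 9 OSU-ERb-12 regions and 3 of 18 enzalutamide regions had the smallest listed width of 200 bp. Over the whole lists 68.0%, 66.1% and 45.7% had that width, in the same order. The lists give no strength, so a width of 200 bp says only that the region was as short as any listed. The widest member region was 250 bp for the combination, 250 bp for OSU-ERb-12 and 400 bp for enzalutamide.

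**Figure D4:**
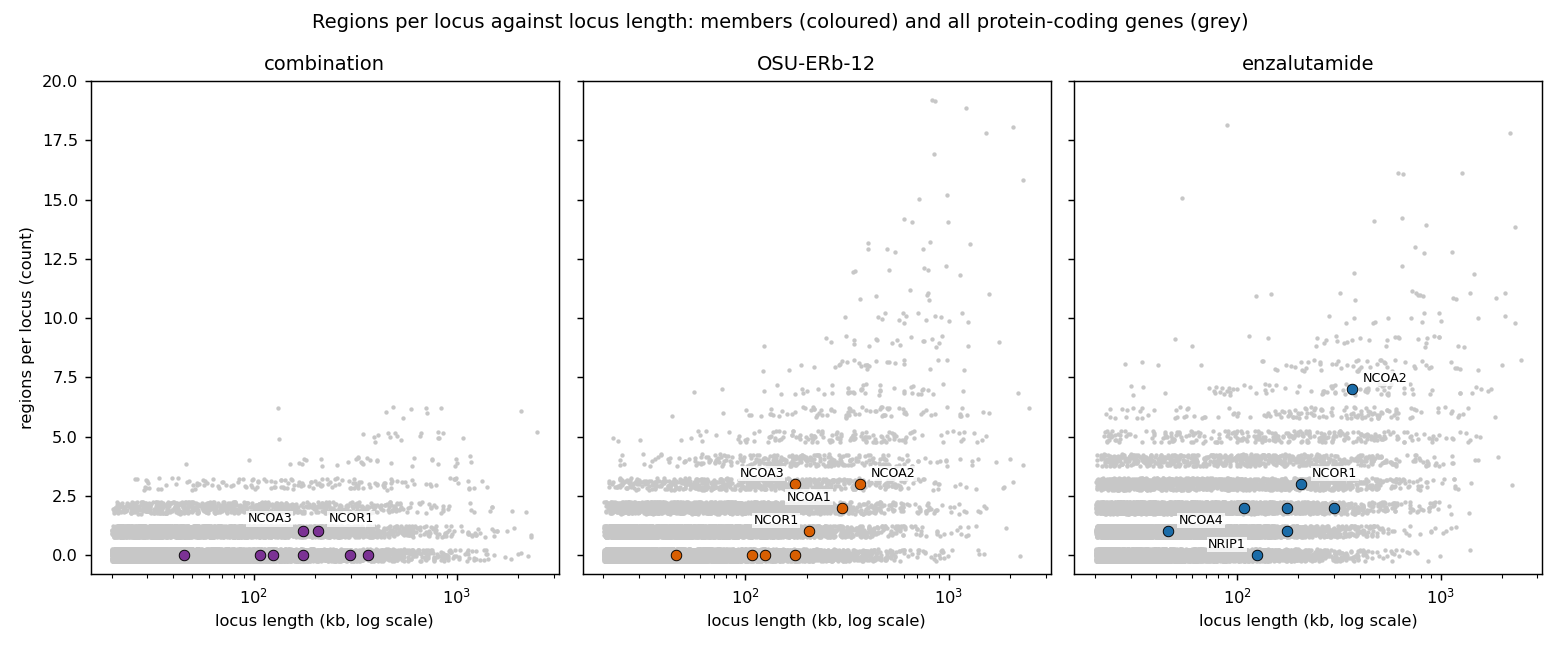
Regions per locus (count) against locus length (kb, log scale) in the combination, OSU-ERb-12 and enzalutamide lists, for the 8 genes (coloured, some named) and all protein-coding genes (grey, shifted slightly up or down at random to show overlapping points). Longer loci reach higher counts in every panel, and the 8 genes sit among the grey points, with NCOA2 at 7 enzalutamide regions the highest of them.

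A wider set of 36 other coregulator genes, chosen by function, was counted in the same way. A combination region was held by 8 (22.2%), an OSU-ERb-12 region by 21 (58.3%) and an enzalutamide region by 27 (75.0%) of them, against 21.7%, 39.1% and 58.3% of all protein-coding genes. Their medians were 0, 1 and 1.5 regions per gene in that order, against 0, 0 and 1 over all protein-coding genes. These comparisons took no account of locus length, and long loci collect more regions. No interval was computed, and whether these genes differ from others was not tested. PPARGC1B, a coactivator of mitochondrial gene programmes, held 3 OSU-ERb-12 and 7 enzalutamide regions and no combination region. SIN3A, a scaffold of histone deacetylase complexes, held 2 combination, 2 OSU-ERb-12 and 4 enzalutamide regions. ARID1A, a subunit of SWI/SNF remodelling complexes, led for OSU-ERb-12 with 4 regions, and RCOR1, the corepressor CoREST, held 1, 1 and 4 in the order of lists used above. The histone methyltransferase gene NSD1 held 1, 2 and 3. HDAC2, a deacetylase gene, and KAT2B, an acetyltransferase gene, held 1 combination region each and 3 enzalutamide regions each. Regions of all 3 lists were present at KAT2B, NSD1, PHB2, RCOR1 and SIN3A (13.9%), against 11.0% of all protein-coding genes. CARM1, MED1, NR0B1 and SMARCD1 held none (11.1%), against 29.3% of all protein-coding genes. These shares too were not matched for locus length.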

How the data were processed

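ATAC-seq of 22Rv1 cells was deposited as 3 BED lists. Per the labels' protocols the reads were split by nucleosome content with ATACSeqQC, and the lists are of the nucleosome-free part. Per the submitters' processing notes FastQC and Trimmomatic were used with the hg38 build. The sources used here name no peak caller, test, threshold or pooling, and define no direction; the tags "neg" and "sig" in the list names are not explained. The deposited score is always 0, and the other deposited columns hold starts and ends, printed 1-based. Lists were matched to treatments by the prefix shared with sample titles (WT, unexplained in the labels, for OSU-ERb-12).

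Regions were intersected with RefSeq loci (GRCh38.p14, 24 chromosomes) in Python 3.11.15 with pandas 2.3.3. Regions overlapping by 1 bp or more were shared. Expected numbers took chromosome length from the outermost gene or region. No test was run across genes. Counting was tested on made-up lists with known answers. Alternatives covered the flank, midpoints, widths, merging, the overlap rule and the start window. Backgrounds from genes of like locus length (within 25%) were added after the counts were seen. The text names all members and, per list, the 4 other coregulators with the most regions, ties cut by alphabetical order (so PRMT1, SMARCA4, SRA1, PPARGC1A and TBL1XR1, tied with named genes, are not described), except for an item that is not reported here; PHB2, CARM1, MED1, NR0B1 and SMARCD1 were named after their values were seen. Members and gene lists were chosen with earlier results of these data known.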

Additional observations from a re-analysis of the deposited data

How the results depend on the processing

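Of 63 summary values recomputed under 10 other settings, 45 stayed within 1.5 times the reported number (or within its Poisson interval, for densities) and 18 did not. With the gene body alone, members with a region fell to 0 for the combination and 4 for enzalutamide, regions to 0 and 10, shared combination and enzalutamide pairs to 0 and members with all 3 lists to 0. With 50 kb either side, regions numbered 4 for the combination and 31 for enzalutamide, and 1 pair was shared between OSU-ERb-12 and enzalutamide. With only regions wider than 200 bp, members with a region were 1 for the combination and 1 for OSU-ERb-12, regions 1 and 1, the shared combination and enzalutamide pair was lost (0) and no member (0) held all 3 lists. With a start window of 5 kb, regions near starts numbered 2 for the combination, 2 for OSU-ERb-12 and 7 for enzalutamide. These settings change the stretch or the regions counted, which is how they move the numbers. A count of 0 could not move under a shorter stretch, fewer regions or a stricter rule. The numbers of values that stayed, here and for single genes, therefore overstate stability. Of 168 values of single genes, 27 moved; EP300 had 1 enzalutamide region after merging within 1 kb, and CREBBP none (0) with 5 kb flanks. No paired analysis was possible because the lists hold no values per sample; for the same reason no replicate could be left out. Depth is unknown, and how long each list is depends on depth.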
